A study of Mus musculus with 2 samples.

Results

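Retained-intron transcripts are annotated RNAs of a gene that keep sequence which other transcripts of the same gene splice out. The 1090 transcripts described here were chosen by their measured level. They carry the annotation biotype retained_intron and had a level of at least 5 TPM (a unit of relative abundance, read counts per length of transcript scaled to the same total in each library) in both libraries of a kallisto-type table. They are 1090 of 21848 retained_intron transcripts listed (4.99%), and come from 887 genes. The study measured total RNA in the adrenal gland of female B6CASTF1/J mice at 10 days of age, F1 animals of a C57BL/6 by CAST cross, with no treatment and no other group. Ribosomal RNA was depleted, 300 ng of RNA went into a strand-specific kit with added spike-in RNAs, and there are 2 libraries, labelled replicate 1 and replicate 2. The sample descriptions name 2 animals, while both library descriptions name the same animal. Whether the spread between the libraries is a spread between animals is therefore not settled. Each library was quantified in 2 ways by the depositors. The kallisto-type table was made from the reads and the RSEM-type table from an alignment to the transcripts, both on mm10 with GENCODE M21. Below, a pair of values is replicate 1 and then replicate 2, and where a pair stands against another pair the kallisto-type table comes first and the RSEM-type table after it.

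Most introns are removed while the RNA is still being made. A transcript that keeps an intron is usually held in the nucleus, where some are spliced later (detained introns), or is exported and destroyed by nonsense-mediated decay, because the intron brings a stop codon into the reading frame. Genes for splicing factors are known for using such transcripts to limit their own output. Introns are also where most small nucleolar RNAs (snoRNAs, guides for the modification of ribosomal RNA) and many microRNAs lie. The biotype is given by annotators to a model, and a model can rest on an incomplete cDNA that starts or ends in an intron. Total RNA includes nuclear RNA, so unspliced RNA of the same intron is measured together with these models.

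The library totals were 35943676 estimated counts in replicate 1 and 33411558 in replicate 2, of which 0.763% and 0.712% fell on spike-ins and control sequence. The summed level of 5 cortex genes was 3723 and 4015 gene-level TPM, that of 5 chromaffin genes 1032 and 1000.5, and that of 3 brown fat genes 2405 and 2936. Markers of neighbouring tissue differed between the libraries. The 4 liver genes summed to 5095 TPM in replicate 1 and 982 in replicate 2, the 5 skeletal muscle genes to 2686 and 943 (with Myh4 alone going the other way, 9.40 and 92.7), and the 4 kidney genes to 0.790 and 195. In bulk tissue, fewer cells of a type and less RNA per cell cannot be told apart.

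The introns that some of these transcripts keep are short enough to be read whole. The rule took the transcripts of highest level that hold 1 whole intron of at most 300 bases between coding exons and that were at 5 TPM or more in both tables. Cyp21a1-203, the transcript of the adrenal steroid 21-hydroxylase gene, was added after its values were seen. Each intron is given 5′ to 3′ on the gene's strand, in reference sequence (mm10, transcripts of GENCODE M21). Capitals mark the first and last 2 bases, where the splice sites lie, and the first stop codon met when the reading frame of the coding transcript runs on into the intron.
Rps20-202, intron chr4:3835010-3835191, minus strand: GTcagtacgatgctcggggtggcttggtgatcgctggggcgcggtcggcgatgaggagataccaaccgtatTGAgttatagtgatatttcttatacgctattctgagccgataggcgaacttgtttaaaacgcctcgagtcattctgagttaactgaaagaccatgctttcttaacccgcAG
Rps20-201, intron chr4:3835292-3835483, minus strand: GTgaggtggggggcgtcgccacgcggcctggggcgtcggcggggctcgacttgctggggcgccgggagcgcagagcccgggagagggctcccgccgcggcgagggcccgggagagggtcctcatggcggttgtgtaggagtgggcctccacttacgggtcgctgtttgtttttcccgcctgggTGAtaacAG
Acadvl-203, intron chr11:70010771-70010848, minus strand: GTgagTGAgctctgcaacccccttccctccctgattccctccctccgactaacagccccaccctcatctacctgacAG
Pcolce-209, intron chr5:137605628-137605722, minus strand: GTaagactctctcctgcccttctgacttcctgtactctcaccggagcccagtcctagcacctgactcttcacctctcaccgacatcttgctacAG
Mrps24-201, intron chr11:5707556-5707623, minus strand: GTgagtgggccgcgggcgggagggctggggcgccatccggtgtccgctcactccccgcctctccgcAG
Prelid1-202, intron chr13:55324445-55324526, plus strand: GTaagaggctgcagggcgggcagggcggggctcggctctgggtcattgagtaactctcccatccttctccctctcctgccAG
Cyp21a1-203, intron chr17:34802237-34802304, minus strand: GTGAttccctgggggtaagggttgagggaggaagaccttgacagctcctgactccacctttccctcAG

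All 7 begin with GT and end with AG, the usual intron ends. The introns of Acadvl-203 (78 bases), Mrps24-201 (68) and Cyp21a1-203 (68) are among the shortest. The frame meets TGA at base 6 of the Acadvl intron, at base 72 in Rps20-202 and at base 184 in Rps20-201. In Cyp21a1-203 the stop codon begins at base 2 and so overlaps the donor site itself. The introns of Pcolce-209, Mrps24-201 and Prelid1-202 have no stop codon in the frame that enters them, but their lengths are not multiples of 3, so reading through them shifts the frame of the next exon.

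Rps20 encodes a protein of the small ribosomal subunit, and Rps20-202 also holds a snoRNA gene, Gm24016. Rps20-202 had 364 and 326 TPM against 62.8 and 49.2 and Rps20-201 338 and 278 TPM against 187 and 161, so the tables disagree on which of them is higher. The log2 ratio of the tables, after both are set to the same total over transcripts of protein-coding genes, was -1.95 for the first and -0.13 for the second. Acadvl-203, from the gene of the mitochondrial very long chain acyl-CoA dehydrogenase, had 154 and 179 TPM against 73.2 and 93.2. Pcolce-209, of an enhancer of procollagen processing, had 95.7 and 85.4 TPM against 32.9 and 27.3, and Mrps24-201, of a mitochondrial ribosomal protein, 73.4 and 68.5 TPM against 42.2 and 39.96. Prelid1-202, from the gene of a mitochondrial lipid carrier, had 61.4 and 65.4 TPM against 50.5 and 54.5.

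Of the 1090 transcripts, 523 had a mean kallisto-type level from 5 to 10 TPM, 453 from 10 to 50 and 63 at 100 TPM or more. The median was 11.03 TPM in replicate 1 and 9.98 in replicate 2, and the top was 923 and 1115. Together they held 3.47% and 3.41% of all TPM. Just inside the threshold lay Zfp386-202 (6.65 and 5.002 TPM) and Prex2-207 (6.51 and 5.02), and just outside it Nop53-202 (6.85 and 4.999), Angptl4-203 (4.998 and 9.25) and Spaca6-211 (6.09 and 4.99). 731 genes had 1 such transcript and 156 had more, up to 8 in Eif4a2, an RNA helicase of translation whose introns hold snoRNAs. By the gene's own biotype, 1076 transcripts belong to protein-coding genes and 14 to genes annotated as processed transcripts.

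The share of the gene says how much of a gene's TPM such a transcript takes. The median share was 18.2% in replicate 1 and 18.8% in replicate 2, and a transcript's share differed between the libraries by a median of 1.84 percentage points. 95 transcripts held at least 50% of their gene on average and 268 under 10%. 186 transcripts were the highest of their gene in both libraries of the kallisto-type table. By the RSEM-type values, 109 of the 1090 led their gene, and 69 led in both libraries of both tables. The median share of the same 1090 transcripts in the RSEM-type table was 8.71% and 7.79%. As a share of the gene's kallisto-type estimated counts, the median was 6.27% and 6.13%.

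The tables differed more than the libraries did. 366 of 1090 transcripts (33.6%) were also at 5 TPM or more in both libraries of the RSEM-type table, against 64.9% of 11244 protein_coding transcripts at the same kallisto-type threshold. The share was 38.2% for 565 transcripts of biotype nonsense_mediated_decay and 28.2% for 1014 of biotype processed_transcript. Level was not matched between the biotypes, here or after the rescaling below. Among the retained-intron transcripts the share was 17.8% at a mean of 5 to 10 TPM, 60.7% at 20 to 50 and 52.4% at 100 or more. Applied to the RSEM-type table alone, the rule finds 597 retained_intron transcripts, and the 366 shared ones are 61.3% of them. 141 of the 1090 were under 1 TPM in both libraries of the RSEM-type table, and 25 were listed at 0 in both.

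Transcripts of protein-coding genes held 65.6% and 63.3% of all TPM in the kallisto-type table and 40.3% and 39.8% in the RSEM-type table. Both tables were therefore also set to the same total over those transcripts, and log2 ratios below are on that scale. The median log2 ratio of RSEM-type over kallisto-type TPM was -0.75 for the retained-intron transcripts, 0.11 for protein_coding transcripts and 0.043 for all transcripts at the threshold. On this scale 573 retained-intron transcripts (52.6%) were at 5 TPM or more in both libraries of the RSEM-type table, against 80.5% of protein_coding, 50.8% of nonsense_mediated_decay and 40.04% of processed_transcript ones. The order of retained_intron and nonsense_mediated_decay thus turned with the scale. 580 retained-intron transcripts (53.2%) were within 2-fold in the tables, against 71.2% of all transcripts at the threshold. 479 were over 2-fold lower in the RSEM-type table, 215 of them over 8-fold (3 on the log2 scale), and 31 were over 2-fold higher.

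The effective length, which divides a count in the TPM, also differed between the tables. The kallisto-type effective length of transcripts of 2000 bases or more was shorter than the transcript by a median of 324 bases in replicate 1 and 327 in replicate 2, and the RSEM-type one by 99 in both. The retained-intron transcripts had a median length of 725 bases, against 2324 for protein_coding transcripts at the threshold. For the retained-intron transcripts the log2 ratio of the effective lengths, RSEM-type over kallisto-type, had a median of 0.65, against 0.15 for protein_coding ones. Counts scaled to the library totals are not divided by a length. In them the median log2 ratio of the tables was -0.48 for the retained-intron transcripts and -0.14 for protein_coding ones. Whether length entered the assignment of shared reads in either table was not tested. By count, 606 retained-intron transcripts were within 2-fold in the tables and 425 were over 2-fold lower in the RSEM-type table.

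**Figure D1:**
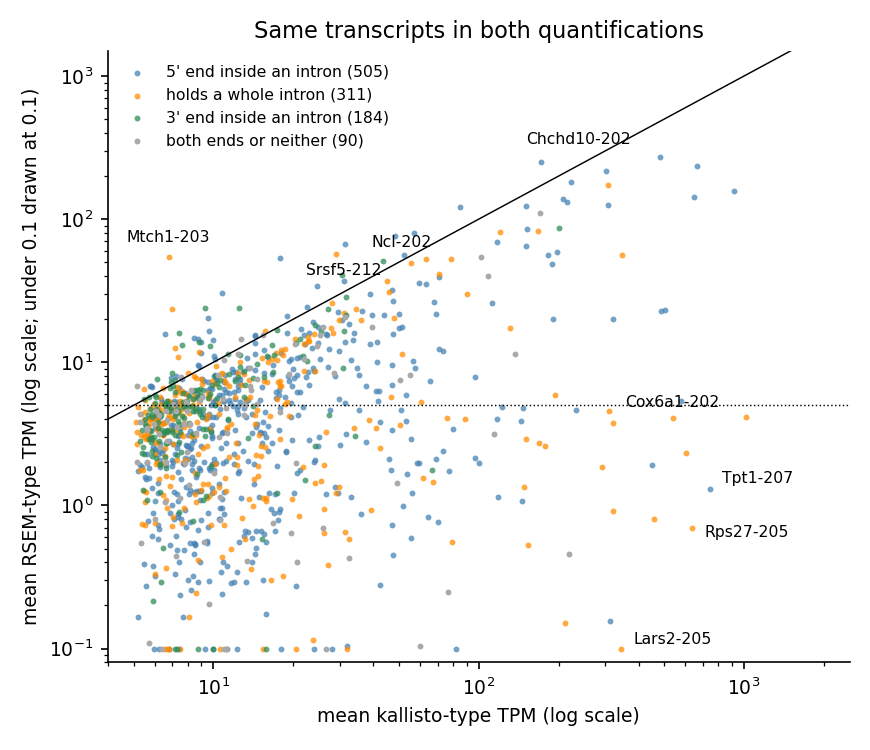
Mean TPM over the 2 libraries of each of the 1090 retained-intron transcripts in the kallisto-type table (x axis, log scale) and in the RSEM-type table (y axis, log scale, values under 0.1 drawn at 0.1). Colours give the place of the intronic sequence relative to introns of protein_coding transcripts, the solid line is equal TPM and the dotted line 5 TPM; 366 transcripts were at 5 TPM or more in both libraries of both tables, and above 100 TPM on the x axis many points lie far under the line.

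The gap was widest at the top of the list. The 63 transcripts at a mean of 100 TPM or more had a median log2 ratio of -3.81, and the 523 from 5 to 10 TPM a median of -0.40. By the length of the gene's main coding transcript, the median was -1.99 for the 110 transcripts whose coding partner is under 700 bases and -0.34 for the 247 whose partner has 4000 bases or more. The transcripts were chosen by their kallisto-type level, so a lower value in the other table is the likelier direction at every level, and no test was made. The groups by level were made on the same value that divides the ratio. A wider gap at the top is therefore in part built into that comparison.

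The 12 highest transcripts came from genes of the respiratory chain, of the ribosome and of a few other abundant mRNAs. Cox6a1 and Cox7b encode subunits of cytochrome c oxidase, the last complex of the chain. Cox6a1-202 had 923 and 1115 TPM in replicates 1 and 2 of the kallisto-type table and made up 92.1% and 90.8% of its gene. It holds 1 whole intron and is 620 bases long, against 571 for the coding Cox6a1-201. The RSEM-type table listed 2.43 and 5.83 TPM for it, with the deposited credibility intervals of 1.01 to 4.65 and 3.23 to 8.75. The coding Cox6a1-201 went the other way, from 79.2 and 113 TPM in the kallisto-type table to 565 and 702 in the RSEM-type table. Both libraries showed the same exchange within the gene. Cox7b-203, which starts inside an intron, had 884 and 943 TPM in the kallisto-type table, where the coding Cox7b-201 had 1.22 and 1.54. The RSEM-type table gave 146 and 168 TPM to Cox7b-203 and 178 and 183 to Cox7b-201. Cycs-201, of cytochrome c, had 563 and 598 TPM (kallisto-type) and 5.05 and 5.61 (RSEM-type), and its coding transcript Cycs-202 had 48.6 and 51.7 TPM against 35.8 and 38.5.

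The counts given to these transcripts also differed between the tables. Cox6a1-202 had 7539.6 and 8456 estimated counts in the kallisto-type table and 42.6 and 95 expected counts in the RSEM-type table. Cycs-201 had 4397.5 and 4339 and then 86.4 and 89.1, and Cox7b-203 4999 and 4944 and then 2096 and 2240.4. The letters themselves tell the models apart in part: Cox6a1-202 has 158 stretches of 31 bases found in no other annotated transcript on its strand, Cox7b-203 182 and Cycs-201 280. Of the 31-base stretches of Cycs-201, 51.5% also occur in transcripts of other genes, among them the gene Gm10053 and processed pseudogenes, so its level is uncertain.

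Symbols beginning with Nduf, Cox and a digit, Atp5, Uqc, Cycs, Cyc1 or Sdh had 35 retained-intron transcripts in 28 genes. This list for the respiratory chain and ATP synthase was made after values were seen. It goes by symbol and so also takes in assembly factors, among them Ndufaf3, Ndufaf7 and Uqcc1. The 28 genes are 25.9% of 108 such genes at 5 TPM, beside 8.28% over all genes. 12 of the transcripts were at 5 TPM in the RSEM-type table, and the median share of the gene was 17.7% (kallisto-type) and 1.15% (RSEM-type). Ndufb4-202, of a complex I subunit, had 314 and 327 TPM against 23.3 and 16.9. Atp5l-202, of an ATP synthase subunit, had 309 and 316 TPM against 0.310 and 0, and none of its 31-base stretches is its own. Hadhb-208 belongs to the beta subunit of the mitochondrial trifunctional protein of fatty acid oxidation. It had 608 and 684 TPM, 54.1% and 54.4% of its gene, and 131 and 157 in the RSEM-type table. Chchd10-202, of a protein of the mitochondrial intermembrane space, had the nearest values of the 12: 464 and 498 TPM against 264 and 279, 51.9% and 53.7% against 59.04% and 60.3% of its gene, which it led in both tables.

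Cytosolic ribosomal protein genes held the largest group among the lists. 52 transcripts came from 39 of 83 such genes at 5 TPM (46.99%), against 887 of 10716 over all genes (8.28%). Of the 64 with any such model listed, the rate was 60.9%, against 13.6% of 6515 over all genes. The threshold is on TPM, so a gene of high level reaches it with a smaller share. Gene level was not matched in this or the other list rates. 12 led their gene, 31 held a whole intron and 14 were at 5 TPM in the RSEM-type table. Their median share of the gene was 12.3% in the kallisto-type table and 1.12% in the RSEM-type table. Rps27-205 had 740.3 and 533 TPM against 0.760 and 0.620, while the coding Rps27-201, only 345 bases long, was listed at 0 in both libraries of the first and at 594 and 545 TPM in the second. In this gene the retained-intron transcripts together took 99.8% and 99.8% of the kallisto-type TPM and 0.856% and 0.861% of the RSEM-type TPM. Rpl37a-204 (569.6 and 511 TPM against 4.36 and 3.82) also had a small value in the second table. Rpl31-204 had 510.3 and 497 TPM against 17.2 and 28.9. Rps16-203 was nearer in the tables, with 681 and 651 TPM against 242 and 227, and led its gene in both. Rps25-203, which took 90.03% and 89.7% of its gene in the kallisto-type table, had 473 and 446 TPM against 0.270 and 1.34. Ribosomal protein genes have many processed pseudogenes, and 74.8% of the 31-base stretches of Rps16-203 also occur in transcripts of other genes. Tpt1-207, of a translationally controlled mRNA that belongs to no list, had 765 and 719 TPM against 1.37 and 1.23.

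**Figure D2:**
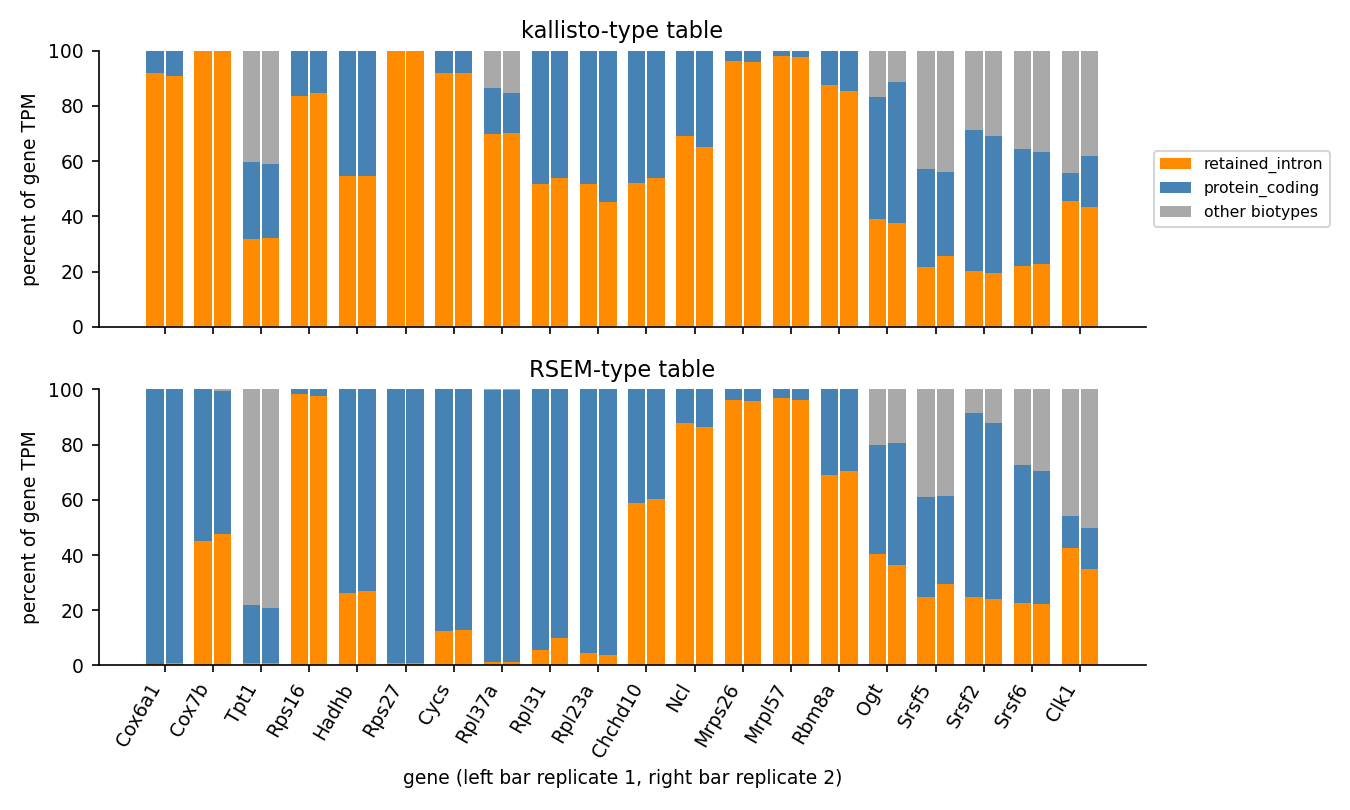
Percent of each gene's TPM (y axis) on retained_intron, protein_coding and other transcripts, for genes of 11 of the 12 highest retained-intron transcripts and 9 further genes named in the text (x axis); the left bar of each pair is replicate 1 and the right bar replicate 2, the upper panel is the kallisto-type and the lower the RSEM-type table. Cox6a1 changed from 92.1% and 90.8% retained-intron TPM to 0.428% and 0.824%, while Mrps26, Mrpl57, Srsf6 and Ogt kept similar bars in both panels.

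Some genes had most of their TPM on a retained-intron transcript in both tables. TPM divides a count by length, so a short transcript can lead by TPM and not by count. By the rule on shares, Mrpl57-202 and Mrps26-201, of mitochondrial ribosomal proteins, stood near the top. Mrpl57-202 had 64.3 and 62.7 TPM against 34.8 and 35.5, 98.2% and 97.9% against 96.9% and 96.4% of its gene. Mrps26-201 had 34.6 and 34.3 TPM against 23.5 and 23.6, 96.3% and 96.1% against 96.2% and 95.9% of its gene. In both genes the shares differed little between libraries and between tables. Mrps25-201 held 89.6% and 89.8% of its gene's TPM in the first table and 67.2% and 65.6% in the second. By kallisto-type count it had 194 and 189, under the 404 and 386 of the 6073-base coding Mrps25-203. Mrps26-201 led by count too, with 700 and 648 against 143 and 143 for the coding Mrps26-202. Rbm8a-204, from the gene of an exon junction complex protein needed for nonsense-mediated decay, had 51.2 and 44.01 TPM, 80.5% and 78.7% of its gene, and 15.7 and 15.9 TPM, 68.9% and 70.5%, in the RSEM-type table. Among the 69 transcripts that led in both tables, picked after values were seen, Ncl-202 of nucleolin had 81.7 and 75.1 TPM against 53.4 and 51.4, holds 2 whole introns and took 65.8% and 62.3% against 66.7% and 71.2% of its gene. Rsrp1-204, 3051 bases long and from a gene for an arginine- and serine-rich protein, had 121 and 119 TPM against 82.7 and 80.8, and Ctsb-202 of the lysosomal protease cathepsin B 166 and 174 TPM against 109 and 113. The 2 other transcripts of largest share came from genes without a name. AC121821.1-204 took 95.9% and 96.1% of its gene and had 230.3 and 207 TPM against 0.400 and 0.510. Gm43305-201 took 100% and 100% of its gene's kallisto-type TPM at 48.9 and 51.7 TPM, and 61.7% and 56.4% in the RSEM-type table.

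Splicing regulators had retained-intron transcripts of similar share in both tables. SR proteins bind exons and recruit the spliceosome, and 11 of 15 of these genes (with Tra2a, Tra2b, Srrm1, Srrm2 and Son) at 5 TPM had a retained-intron transcript at the threshold (73.3%). That is 84.6% of the 13 with any such model listed, against 13.6% of 6515 over all genes. There were 17 transcripts, 0 of which led the gene, 12 held a whole intron and 13 were at 5 TPM in the RSEM-type table. Their median share of the gene was 14.6% in the kallisto-type table and 14.6% in the RSEM-type table, and the median log2 ratio of the tables was 0.13, beside -0.75 over all 1090. Srsf5-212 (chr12:80945532-80950503), which holds 3 whole introns in 2720 bases, had 46.1 and 45.95 TPM against 30.8 and 31.1. Srsf2-203 had 33.3 and 28.9 TPM against 23.4 and 20.7, 20.3% and 19.6% against 24.8% and 24.01% of its gene. Srsf6-204 had 18.4 and 17.6 TPM against 12.4 and 11.9, 22.2% and 22.8% against 22.5% and 22.4% of its gene. In these 3 replicate 2 was level with replicate 1 or slightly under it, in both tables. Srrm2-209, of a large protein of the spliceosome's outer parts, had 50.6 and 43.3 TPM against 35.9 and 28.2, and Srrm2-207 34.1 and 28.5 TPM against 14.8 and 12.9. Tra2a-203 (6.43 and 5.69) and Tra2b-203 (6.04 and 5.03) lay just above the threshold. Srsf6-204, Tra2a-203 and Tra2b-203 were picked after their values were seen.

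Of the transcripts from kinases that phosphorylate SR proteins, Clk1-213 alone was over 2-fold apart in the tables after rescaling. 7 transcripts came from 4 of 7 kinase genes (57.1%, beside 8.28% over all genes), with a median log2 ratio near 0 (0.00014). Clk1-204, which holds 4 whole introns, had 12.9 and 13.1 TPM against 8.38 and 8.25. Clk4-207 had 11.2 and 9.96 TPM against 7.75 and 7.36, Prpf4b-206 7.74 and 8.08 TPM against 5.09 and 4.75, and Clk2-207 6.85 and 5.39 TPM against 3.98 and 3. Clk1-213, named after its values were seen, had 5.997 and 5.77 TPM against 0.980 and 1.66, a log2 ratio of -1.49. On the deposited scale, 2 of the 7 reached 5 TPM in the RSEM-type table. Among genes known for detained introns, 6 of 11 (54.5%) had 11 transcripts, 4 of them at 5 TPM in the RSEM-type table. The list shares Clk1 and Clk4 with the kinases. Ogt-204, of the enzyme that adds N-acetylglucosamine to proteins, had 33.1 and 26.4 TPM against 21.3 and 18, 38.5% and 37.5% against 32.8% and 34.3% of its gene. It holds 2 whole introns and has 1368 31-base stretches of its own. Rbm3-209, of a cold-induced RNA-binding protein, had 8.24 and 7.55 TPM against 5.60 and 5.06.

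Other RNA-binding proteins were more mixed. The hnRNP list had 17 transcripts in 7 of 26 genes (26.9%, beside 8.28% over all genes). 11 were at 5 TPM in the RSEM-type table, and the median share was 7.22% and 4.81%. Hnrnpa2b1-208 had 50.04 and 46.2 TPM against 20.8 and 19.99, and Hnrnpk-209 34.2 and 35.2 TPM against 10.2 and 8.18. Core spliceosome genes had 25 transcripts in 14 of 36 genes (38.9%). 14 of the transcripts were at 5 TPM in the RSEM-type table, and the median share was 11.8% and 11.3%. Ddx39b-204, of an RNA helicase that also acts in mRNA export, had 34.3 and 28.95 TPM against 23.1 and 19.6. Rbm39-205 had 33.2 and 28.9 TPM against 17.5 and 15.4, Rbm39-208 35.9 and 25.8 TPM against 11.1 and 7.05, and Snrnp70-216, of the U1 snRNP, 28.1 and 23.6 TPM against 19.1 and 16.3. Rbm8a-204 was the only transcript from the 14 genes of nonsense-mediated decay factors (7.14% of genes).

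**Figure D3:**
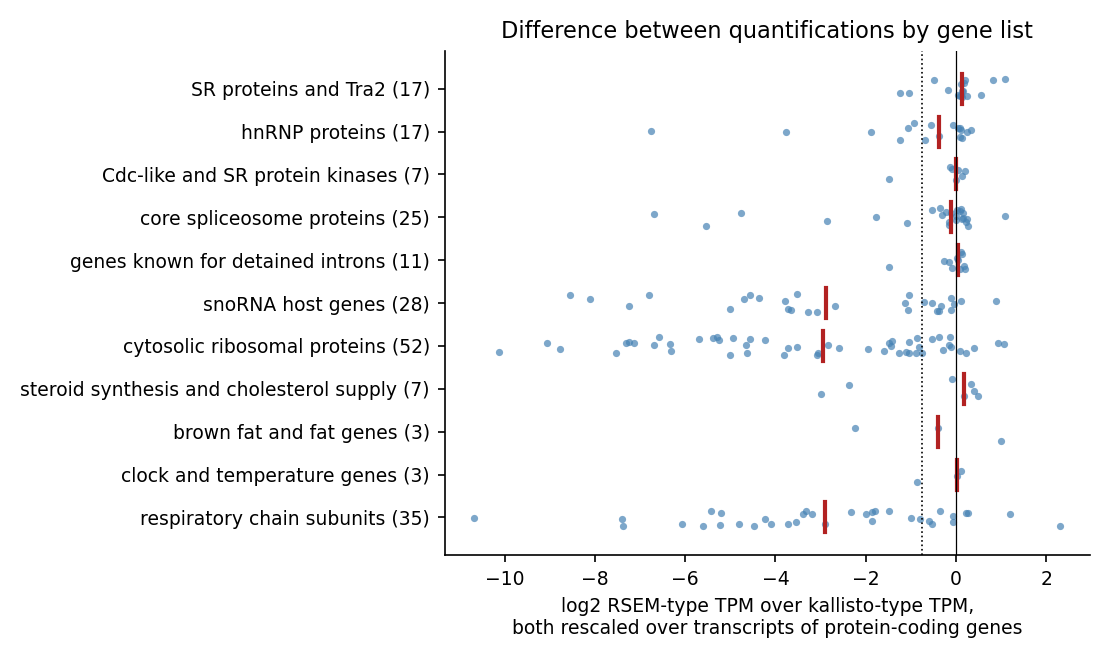
Log2 ratio of RSEM-type over kallisto-type TPM (x axis), both rescaled over transcripts of protein-coding genes, for each retained-intron transcript of the gene lists with 3 or more of them (y axis, number of transcripts in brackets, points spread vertically at random). Red bars are list medians and the dotted line is the median of all 1090 transcripts (-0.75); the medians of the 4 splicing lists lie between -0.38 and 0.13 and the ribosomal protein, snoRNA host and respiratory chain lists reach far to the left.

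Genes of steroid synthesis, the work of the adrenal cortex, had retained-intron transcripts of small share. In steroid synthesis and cholesterol supply, 7 transcripts came from 6 of 28 genes at 5 TPM (21.4%, beside 8.28% over all genes), and 4 were at 5 TPM in the RSEM-type table. Their median share of the gene was 3.62% in the first table and 3.25% in the second. Cyp21a1-203, whose intron is printed above, had 50.5 and 39.7 TPM against 41.6 and 32.8. The coding Cyp21a1-201 had 1190.2 and 1208 TPM against 767 and 798, so the retained-intron transcript was 4.07% and 3.18% against 5.09% and 3.88% of the gene. Of its 31-base stretches, 44.1% occur in other genes. Cyp11a1-204, of the enzyme that makes the first steroid from cholesterol, had 16.6 and 13.98 TPM against 11.7 and 9.84, 2.10% and 1.74% of its gene. Nr5a1-203, of the cortex transcription factor SF-1, had 10.1 and 10.7 TPM against 7.78 and 8.53, 9.93% and 9.57% of its gene. Soat1-202, of the enzyme that esterifies cholesterol for storage, had 13.9 and 15.8 TPM against 1.38 and 0.920. In the chromaffin list only Chga, of the granule protein chromogranin A, had any: Chga-202 with 8.15 and 6.61 TPM and Chga-203 with 7.69 and 6.98, each under 2% of the gene. Fat genes gave Fabp4-202 (121 and 142 TPM against 16.3 and 18.4), Car3-202 (7.08 and 5.17 TPM against 8.78 and 6.57) and Lpl-202 (5.90 and 5.76 TPM against 2.65 and 2.86). Clock and temperature genes gave Tef-207 (7.51 and 9.38), Rbm3-209 and Cirbp-205 (6.90 and 7.57). No transcript came from the red cell or skeletal muscle lists, each with 4 genes at 5 TPM that have a retained-intron model listed, nor from the kidney tubule list, which had no gene at 5 TPM. The muscle gene Tnni2, described below, is not on the muscle list.

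The splice sites of further members of the lists can be set beside these introns. The rule asked for 1 whole intron between coding exons and 5 TPM in both tables, and 3 transcripts met it. Each line gives the last 3 exonic and first 6 intronic bases of the donor and then the last 20 intronic and first 3 exonic bases of the acceptor, with the GT and AG in capitals.
Cyp11a1-204 donor, intron chr9:58018394-58019292, plus strand: agtGTaagg
Cyp11a1-204 acceptor: gcctcagtctctcactgcAGcca
Eif4a2-205 donor, intron chr16:23110154-23110233, plus strand: tttGTaagt
Eif4a2-205 acceptor: tatgactttcttattaacAGctc
Srsf1-203 donor, intron chr11:88049599-88049976, plus strand: ctcGTacat
Srsf1-203 acceptor: tttcatgtgtctttctgtAGaca
The intron held by Cyp11a1-204 is 899 bases long, that of Eif4a2-205 80 and that of Srsf1-203 378. All 3 bring a stop codon into the frame, at base 21, 6 and 6 of the intron.

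Most of the chosen transcripts hold part of an intron and not a whole one. 352 of 1090 (32.3%) hold at least 1 intron that another transcript of the gene splices, and 6725 of 20758 retained_intron transcripts under the threshold do (32.4%). Counted against introns of protein_coding transcripts alone, 311 hold a whole one. Of the other 779, 505 start inside an intron, 184 end inside one, 46 do both and 44 neither. Those that start in an intron had a median length of 647 bases and took a median of 22.6% of the gene in the kallisto-type table, against 9.01% in the RSEM-type table. Those that end in an intron took 11.4% and 8.44%, and those with a whole intron 17.5% and 7.44%. The median log2 ratio of the tables was -1.17, -0.071 and -0.59 in the same order. A median of 209.5 bases of a transcript lay in introns of coding transcripts.

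The held introns were short. 596 distinct introns of at least 50 bases were held whole, with a median length of 244 bases (quartiles 115 and 584, longest 5125). The 3480 other introns of protein_coding transcripts of the same genes had a median of 551.5. 33.7% of the held introns and 22.3% of the others were under 150 bases. A model cannot hold an intron longer than itself, so its length limits this comparison. 581 of the held introns begin with GT and end with AG, 8 begin with GC and 7 have other ends. Of 399 that lie between coding exons, 349 (87.5%) put a stop codon into the frame, at a median of 37 bases into the intron. 8 neither bring a stop nor shift the frame, so that the intron could be read as coding sequence. They are held by Timm17b-203, Oaz1-206, Naprt-204, Mcam-203, Akap8l-207, Actb-205, Tnpo2-205 and Ssbp4-206, named here because the count is small. Timm17b-203, of a subunit of the mitochondrial import machinery, had the highest level of them, 24.2 and 19.8 TPM against 14.1 and 12.96.

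**Figure D4:**
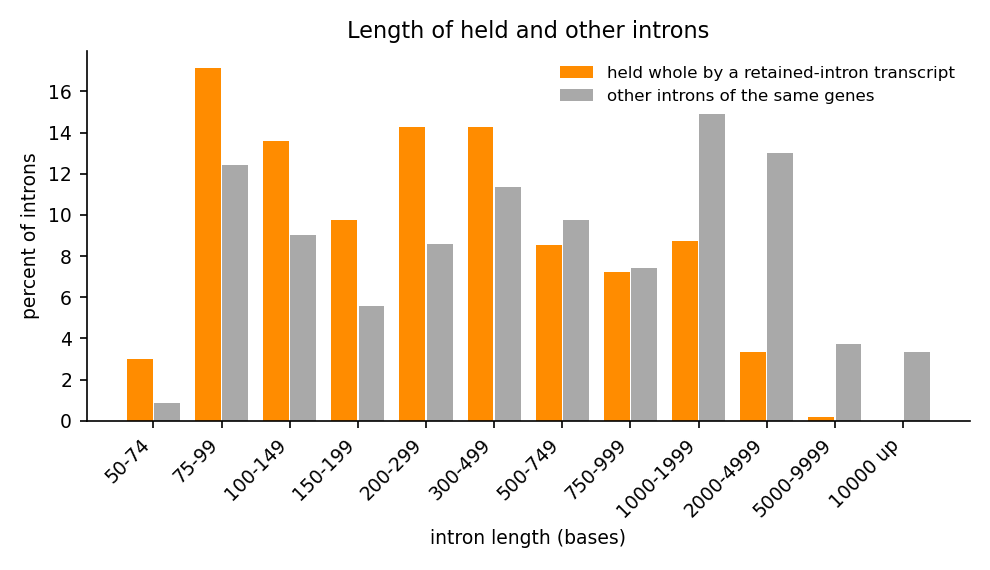
Percent of introns (y axis) by length in bases (x axis) for the 596 introns held whole by the chosen transcripts and for the 3480 other introns of protein_coding transcripts of the same genes. The held introns could come from any other transcript of the gene. Held introns are more frequent than the others in each bin under 500 bases and less frequent from 500 bases up.

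Some of the retained sequence contains a small RNA gene. 30 transcripts (2.75%) hold a whole small RNA gene on their strand, against 169 of 20758 under the threshold (0.814%). 19 hold a snoRNA and 13 a microRNA, 2 of them both. A read of the small RNA can also fit its host, and how either table divided such reads was not tested. By mean kallisto-type level, the highest were Rps20-202, with the snoRNA gene Gm24016, and AC121821.1-204, with Snora74a, both given above. Eif4a2-220, with the snoRNA gene Gm26447, had 161 and 135 TPM against 0 and 2.68. Snhg1-213, with Gm22744 and Snord22, had 65.7 and 54.7 TPM against 0.210 and 0, and Rplp2-205, with Snora52, 34.7 and 26.1 TPM against 51.8 and 30.1. Taf1d-203, with 6 small RNA genes, had 11.2 and 10.3 TPM against 8.55 and 8.39. Among the list of snoRNA host genes 15 of 38 (39.5%, beside 8.28% over all genes) had 28 transcripts. 7 of these were at 5 TPM in the RSEM-type table, and the median share was 9.23% and 2.03%. The highest of that list were Rpl23a-202 (529 and 441 TPM against 24.4 and 21.1), Rpl4-202 (243 and 222 TPM against 3.30 and 6.02) and Rpl13a-213 (135 and 167 TPM against 60.8 and 69.05). Gas5, on this list and the only gene with such transcripts on the list of non-coding hosts, had Gas5-220 (23.3 and 17.5 TPM against 2.49 and 1.49) and Gas5-218 (8.19 and 7.71 TPM against 4.77 and 4.43), the latter with 10 whole introns.

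The microRNA hosts include introns that end where a mature microRNA ends. A mirtron is a microRNA cut from a spliced intron whose end serves as the end of the hairpin, without the usual first cut by Drosha. 10 of the microRNA genes matched the RefSeq table (GRCm38.p6), with 16 mature arms. For 4 of them the last base of the 3′ arm is the last base of an annotated intron of the host gene, so the arm ends in the AG of the splice site. They are shown with miR-126a-3p, the endothelial microRNA of Egfl7, whose arm lies 240 bases before the end of its intron. No matched arm begins at the first base of an intron. The 5′ arm begins 11 bases from the donor end for miR-1982, 116 for miR-3082 and 230 for miR-7014. Whether any of them is made as a mirtron was not tested. Capitals mark the seed, bases 2 to 8, which pairs with targets.
miR-7014-3p, held by Ecm1-207, chr3:95734911-95734931, minus strand: cCUCUUUCauaccaaccacag
miR-1982-3p, held by Oaz1-206, chr10:80828848-80828870, plus strand: uCUCACCCuauguucucccacag
miR-6935-3p, held by Actg1-209, chr11:120347350-120347369, minus strand: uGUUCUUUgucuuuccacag
miR-3082-3p, held by Stub1-206, chr17:25831366-25831387, minus strand: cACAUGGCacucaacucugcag
miR-126a-3p, held by Egfl7-206, chr2:26591402-26591423, plus strand: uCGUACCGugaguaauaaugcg
No 2 of these 5 share a seed. The introns are 288 bases long in Ecm1, 74 in Oaz1, 142 in Actg1 and 178 in Stub1. Oaz1, of the antizyme that controls polyamines, also has a longer intron there with a later acceptor. In the kallisto-type table Ecm1-207 had 24.7 and 14.4 TPM, Oaz1-206 15.5 and 14.8, Actg1-209 6.68 and 5.31, Stub1-206 7.60 and 6.73 and Egfl7-206 21.5 and 19.3. In the RSEM-type table they had 11.3 and 9.61, 2.91 and 2.27, 5.60 and 4.59, 12.9 and 12.3 and 13.6 and 13.1. Egfl7-206 and Stub1-206 were the steadiest of the 5 between the libraries in the second table. These levels are of the long transcript, not of the microRNA.

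Between the 2 libraries most retained-intron transcripts held their level. 1056 of 1090 (96.9%) were within 2-fold, against 97.2% of all transcripts at the threshold. An exact two-sided binomial test on estimated counts, with Benjamini-Hochberg adjustment over all transcripts of at least 20 summed counts and a fold of at least 2, called 34 (3.12%). The same rule called 16.5% of all transcripts tested, 8.91% higher in replicate 1 and 7.6% higher in replicate 2, and 2.80% of transcripts of any biotype at the same threshold in both libraries. The threshold in both libraries limits how far a transcript can differ, and the test covers counting error only, since there is 1 group. 20 were higher in replicate 1 and 14 in replicate 2. In the RSEM-type table the credibility intervals of the libraries did not overlap for 55 of 1024 (5.37%), against 5.75% of all transcripts above 0 TPM in both libraries and 12.1% of those at the same kallisto-type threshold. 2 transcripts met both rules, Trf-209 and Tnni2-203.

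Several of the largest differences were in genes known from other tissues, all higher in replicate 1. Trf-209, of the liver's iron carrier transferrin and the only transcript of the hepatocyte list, had 293 and 49.8 TPM against 423 and 79.3 (log2 replicate 2 over replicate 1 -2.44, exact binomial test, adjusted p = 8.61e-127). Its share of the gene was 21.1% and 18.8%, so the whole gene differed, and all 4 liver genes above, Trf among them, were higher in replicate 1. 84.6% of its 31-base stretches also occur in transcripts of other genes, those of Gm20425. Afp-204, of the fetal liver protein alpha-fetoprotein, had 58.2 and 5.46 TPM, and the coding Afp-201 141 and 14.2. Tnni2-203, of fast skeletal muscle troponin I, had 229 and 62.7, and its share stayed at 48.95% and 48.2%. The muscle genes checked were higher in replicate 1 in sum. These marker genes moved with the results, and the part of liver or muscle RNA in them was not tested. The RSEM-type table put Afp-204 at 0.210 and 0 TPM and Tnni2-203 at 1.90 and 0.230. Over the 34 called transcripts, the gene's own TPM differed by 2-fold or more in 5 and by at most 1.5-fold in 28.

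Others differed while the gene's total lay within 1.5-fold. Ndufa5-203, of a complex I subunit, had 107 and 31.6 TPM (379.9 and 104 counts), and the gene's Ndufa5-204 213 and 245. In the RSEM-type table Ndufa5-203 had 2.45 and 1.76, with overlapping intervals. Atp5o-204 had 44.99 and 96.6 TPM against 40.3 and 38.3, so the difference was in the first table alone. Rps27-209 had 112 and 245 while Rps27-205 had 740.3 and 533, in opposite directions. Coro1b-204, of an actin regulator, was higher in replicate 2 in both tables, with 11.1 and 27.6 TPM against 3.58 and 11.2, but the RSEM-type intervals overlapped (0.561 to 6.96 and 6.50 to 16.5). Lars2-205, of the mitochondrial leucyl-tRNA synthetase, had the largest difference, 50.5 and 639 TPM in replicates 1 and 2 (786 and 9292 counts). Here the gene's summed TPM differed too, 145 and 1685, carried by Lars2-205 and Lars2-209 and not by the coding transcripts. Lars2-205 was listed at 0 in both libraries of the RSEM-type table. There the gene's transcript Lars2-209 differed instead, with 16.9 and 288 TPM, beside 65.5 and 1019.7 in the kallisto-type table, while the coding Lars2-201 had 23.6 and 22.1 TPM against 13.7 and 11.1.

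**Figure D5:**
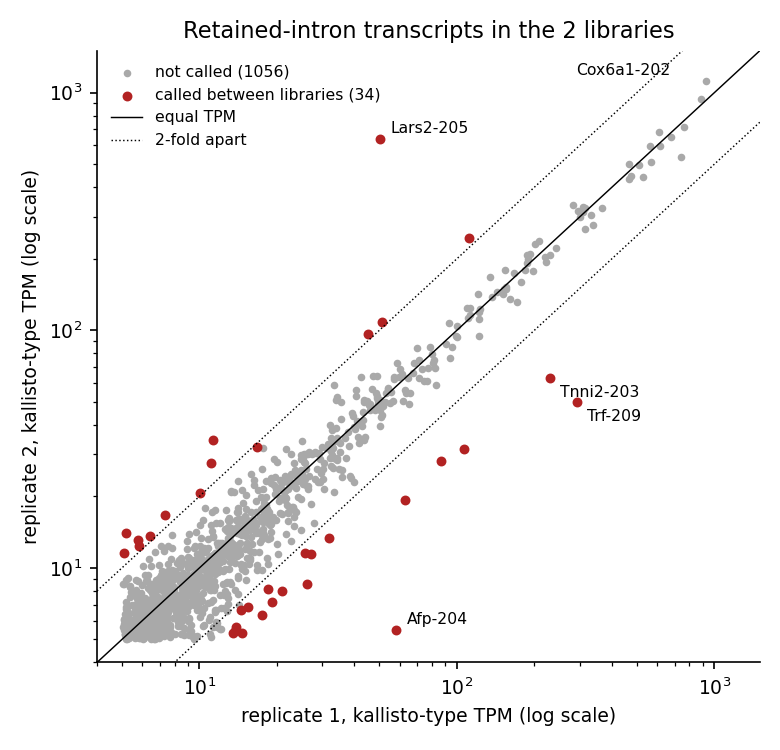
Kallisto-type TPM of the 1090 retained-intron transcripts in replicate 1 (x axis) and replicate 2 (y axis), both on log scales. Red points are the 34 called by the exact binomial test at 2-fold or more, the solid line is equal TPM and dotted lines are 2-fold; 1056 transcripts lie within 2-fold after scaling, and Lars2-205, Trf-209, Afp-204 and Tnni2-203 lie outside.

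The models can be hard to tell apart from their neighbours. A median of 158.5 bases of a retained-intron transcript lie in no exon of another transcript of its gene (private bases), and 150 transcripts have none. 139 have no 31-base stretch of their own, so no read of that length could be given to them alone. Of those, 32.4% were at 5 TPM in the RSEM-type table, and their median log2 ratio of the tables was -1.25. The 195 transcripts with 400 or more such stretches had a median log2 ratio of 0.00098, and a median share of the gene of 11.4% and 9.81% in the 2 tables. The order was not even in between, with -0.53 for 1 to 99 stretches and -1.10 for 200 to 399. Counts are not divided by a length. In them the medians were -1.09 with no stretch, -0.17 for 1 to 99, -0.89 for 200 to 399 and -0.21 for 400 or more. By count, the groups of 1 to 99 and of 400 or more thus lay close together. Their median log2 ratios of the effective lengths were 0.84 and 0.17. 76 transcripts share over 50% of their stretches with other genes on the same strand. The furthest cases lie on both sides. Mtch1-203, with 36 stretches of its own, was the furthest above its kallisto-type value, 5.03 and 8.53 TPM against 54.8 and 54.5. Ndufa10-204 (22.7 and 12.99 TPM against 57.4 and 49.6), Psma3-203 (8.74 and 5.19 TPM against 25.4 and 22.1) and H2-K1-215 (7.84 and 13.7 TPM against 32.8 and 28.6) were next. At the other end, Myl6-207 (78.5 and 85.3 TPM) was listed at 0 in both libraries of the RSEM-type table, and Rps13-208 had 220.0 and 204 TPM against 0 and 0.300, both with no stretch of their own.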

How the data were processed

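The kallisto-type tables give estimated counts and TPM per transcript, deposited by the authors and made from reads per the files' own notes. The RSEM-type tables give expected counts, TPM, the percent of the gene (IsoPct) and credibility bounds of the TPM (a signal column, not used as counts), deposited by the authors and made from a transcriptome alignment per the file headers. Gene-level TPM came from the same deposit. The sources do not name the tools or their versions. The members and gene lists were chosen with earlier results of these data known. Estimated and expected counts were rounded and tested with an exact binomial test (scipy 1.17.1) at TMM library sizes (edgeR 4.0.16, used for scaling only), adjusted over all transcripts with at least 20 summed counts, called at an adjusted p of 0.05 and 2-fold. With 1 group, no test of spread between animals is possible. Log2 ratios of tables used a pseudocount of 0.1 TPM. Exon structure and letters came from GENCODE M21. The test was checked on simulated counts with known changes. Named transcripts are the 12 highest, 10 of largest share of the gene, 4 in each direction between libraries and between tables, and up to 4 per gene list; a few of these are not reported here, and others were picked after their values were seen and are named as such or as small counts. Thresholds of 2 and 10 TPM, a minimum length of 500 bases, single libraries, other scalings (DESeq2 1.42.0 size factors, total counts) and private bases were tried as alternatives. The 97 spike-in and control rows held 0.763% and 0.712% of estimated counts and were left out of tests.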

Additional observations from a re-analysis of the deposited data

How the results depend on the processing

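A TPM threshold of 10 in both libraries left 501 transcripts, with a median share of the gene of 25.3%, 143 at the threshold in both tables, 33 with intervals apart, 16 called between libraries, 157 holding a whole intron and 16 a small RNA gene. A threshold of 2 gave 3411 transcripts, 10.5%, 1453, 155, 141, 1191 and 75 in the same order. The rule applied to the RSEM-type TPM gave 597 transcripts, and 109 of the 1090 led their gene by that table. The median share of 18.6% over both libraries became 17.8% for transcripts of at least 500 bases, 17.3% with at least 100 private bases, 8.47% by the RSEM-type TPM, 6.27% by estimated counts and 20.4% for transcripts also at 5 TPM in the RSEM-type table (added after seeing the data). With 1 library left out it ranged from 16.5% to 17.96%, since the rule then asks for the threshold in 1 library. The count also at 5 TPM in the RSEM-type table was 573 after rescaling over transcripts of protein-coding genes (added after seeing the data) and 199 of the 682 with at least 100 private bases. Between libraries 18 were called among transcripts of at least 500 bases, 84 by RSEM-type expected counts and 295 with no minimum fold. The other 27 alternatives moved no count by over 1.5 times. DESeq2 size factors called 34, total count scaling 39, and 33 were called without the liver, kidney and muscle list genes (added after seeing the data). The shares over all transcripts are given above for the main setting only. The counts called or with intervals apart under the alternatives therefore have no background to be read against. No paired analysis was possible because there is 1 group. Depth limits the lower transcripts, since the median estimated count was 164 in replicate 1 and 146 in replicate 2.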
